A study of Mus musculus with 6 samples.

Results

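miR-221 and miR-222 are a pair of microRNAs made from hairpins that lie side by side on the X chromosome, and their main products carry the same seed. The members described here are the mature products of both hairpins, mmu-miR-221-3p, mmu-miR-221-5p, mmu-miR-222-3p and mmu-miR-222-5p, taken by name from the deposited count table: 4 of its 1915 distinct mature microRNAs, each with 1 entry. Small RNA was sequenced from mouse iBN cells, which the labels call BN cells (granulocyte-macrophage progenitor) and which carry a doxycycline-inducible system for PU.1, the transcription factor that drives myeloid differentiation. Both groups were cultured as a suspension in serum-containing medium with the myeloid cytokine GM-CSF. The uninduced group (n = 3 libraries, trials 1, 2 and 3) received no inducer, and the induced group (n = 3 libraries, the same trials) was kept in doxycycline at 1000 ng/ml for 72 hours. Doxycycline was given only to cells with the inducible system, so the effects of the drug and of PU.1 cannot be told apart here, and the sources used here do not say whether the line is a single clone.

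A microRNA guides an Argonaute protein to messenger RNAs that pair with its seed, bases 2 to 8 from the 5′ end, and lowers their translation and stability. miR-221 and miR-222 are known repressors of Kit, the stem cell factor receptor of haematopoietic progenitors and mast cells, and of the cell cycle inhibitors Cdkn1b and Cdkn1c. Their levels are known to fall as erythroid progenitors mature. Each hairpin yields a 3p strand, which is the usual guide, and a 5p strand, which is mostly discarded. A change in the transcript that holds the hairpins alters both strands, while a change in strand choice or strand stability alters their ratio, so both quantities are given below.

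The mature strands that RefSeq lists for these hairpins are printed first, 5′ to 3′ and with the seed in capitals, because the shared seed is the reason for adding their reads together. The table has no mature sequence for miR-222-5p.

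miR-221-3p: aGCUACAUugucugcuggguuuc
miR-222-3p: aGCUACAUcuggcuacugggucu
miR-221-5p: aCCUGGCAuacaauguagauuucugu

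The 3p strands were identical over their 8 bases from the 5′ end, which hold the seed GCUACAU, and diverged after them, with 11 identical positions of 23 when set side by side without gaps. Reads of the pair can therefore be told apart by the rest of the strand. The same seed was found in RefSeq in only 1 other mature mouse microRNA, miR-1928, which had 0 reads in all 6 libraries. Among names with a RefSeq mature sequence, miR-221-3p and miR-222-3p thus supplied all measured reads of this seed. The seeds of the 292 names without such a sequence, miR-222-5p among them, were not known. The 5p strand of miR-221 carries a different seed, CCUGGCA.

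The hairpins show where the strands lie, with the mature strands listed by RefSeq in capitals.

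Mir221: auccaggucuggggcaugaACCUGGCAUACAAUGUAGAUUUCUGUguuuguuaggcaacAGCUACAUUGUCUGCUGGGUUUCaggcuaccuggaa
Mir222: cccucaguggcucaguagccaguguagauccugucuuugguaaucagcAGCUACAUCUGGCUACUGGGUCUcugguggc

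In GRCm38, the assembly named mm10 in the labels, Mir221 lies at chrX:19146294-19146388 and Mir222 at chrX:19146893-19146971, both on the minus strand, with 504 bases between them. No other hairpin lies within 10 kb. Neither hairpin overlaps another gene of the GENCODE annotation, and the nearest, Gm14636, a processed transcript on the same strand, lies 10010 bases beyond Mir222.

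Matches to the shared seed were looked for in the 3′ UTRs of 6 reported targets, to show what this seed can pair with, as no messenger RNA was measured in these libraries. The motif was ATGTAGC, the complement of the seed, read on the transcript strand only. It was also read with a following A, as ATGTAGCA, which contains the shorter motif. Kit had 2 matches, both followed by A, in a 3′ UTR of 2177 bases. Cdkn1b, which holds cells in G1, had 1 match followed by A in 3439 bases, and Cdkn1c, its relative, 1 in 688 bases. Ets1, a transcription factor related to PU.1, had 2 matches, 1 of them followed by A, Bbc3, which promotes apoptosis, 1 followed by A, and Timp3, a metalloproteinase inhibitor, 1 without it. Read as TGTAGCA, without the first base of the motif and with a following A, there were 3 matches in Cdkn1b and 2 in Kit. The other genes had 1 each. These counts include the matches followed by A above, and the share of all genes with TGTAGCA is not given here. Of 21028 coding genes, taking the transcript with the longest 3′ UTR for each, 9.4% held the 7 bases and 3.5% the motif with A. Among genes whose 3′ UTR was within 10% of the length of that of Kit the share with the 7 bases was 15.1%, and for Cdkn1b and Cdkn1c it was 23.2% and 5.0%. The sites of Kit and Cdkn1b are shown with the match in capitals; a match is a description of the sequence and not a measured site.

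Kit, chr5:75654980-75655005, plus strand: gatgggagatatATGTAGCaagacta
Kit, chr5:75656511-75656536, plus strand: gtaaatattgaaATGTAGCaataatg
Cdkn1b, chr6:134924419-134924444, plus strand: taaaagcattggATGTAGCattgcgc

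**Figure D1:**
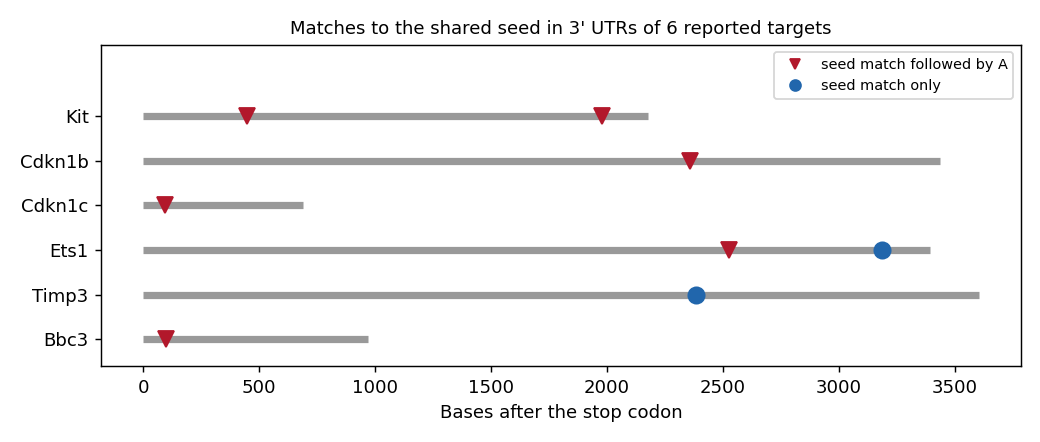
Matches to the shared seed along the 3′ UTRs of 6 reported targets, with bases after the stop codon on the x axis and 1 grey line per gene drawn to its length. Triangles are matches followed by A and circles matches without it; Kit has 2 triangles, at bases 447 and 1978.

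The libraries held 8697384 to 13946613 reads with 1 entry kept per name. Levels are given as CPM, read counts scaled to a common library total and by TMM factors. A microRNA without a read could still have stood at 0.215 to 0.345 CPM, depending on the library, by counting error alone. Of 525 microRNAs that could be tested, 18 were higher and 14 lower in induced cells in the quasi-likelihood test of edgeR (Benjamini-Hochberg adjusted p under 0.05). With the trial as a block these counts were 56 and 58 (10.7% higher). Myeloid markers as a sum were abundant in every library, with the 6 of the list summing to 81217 to 103779 CPM uninduced and 91864 to 106207 CPM induced. Most of this was miR-142a-5p, at 53789 to 73979 CPM uninduced and 56226 to 76326 CPM induced. Of the 6 only miR-146a-5p passed, and only with the block (0.56, edgeR adjusted p = 0.0373). It was rare, at 4.43 CPM uninduced and 6.55 CPM induced on average. Without the block the log2 change was 0.54 for miR-21a-5p and 0.05 for miR-142a-3p and miR-142a-5p. It was -0.20 for miR-155-5p and -0.23 for miR-223-3p. The 5 erythroid markers summed to 45.5 to 72.5 CPM uninduced and 74.8 to 80.2 CPM induced, so these groups did not overlap. The share of all microRNAs separate in this direction is not given here, so the separation is not read as a result. Nearly all of the sum came from miR-486a-5p and miR-486b-5p, which had 2221 and 2217 reads. Their log2 change of 0.34 each did not pass (edgeR adjusted p = 0.326 each). Their counts were nearly the same and may be 1 set of reads. The defining erythroid microRNAs were near 0, with 17 reads of miR-451a, 7 of miR-144-5p and 0 of miR-144-3p in all libraries together. The 4 lymphoid markers summed to 36986 to 39258 CPM uninduced and 28954 to 36985 CPM induced. These groups were separate by a narrow margin, and 11.6% of the 525 tested microRNAs taken singly were separate in this direction. Most of the lymphoid sum was miR-181a-5p, at 30538 to 32778 CPM uninduced. Of the 4 markers 0 passed without the block. With it only miR-181a-5p did (-0.30, edgeR adjusted p = 0.0255), against 11.0% of all tested called lower. Whether each trial was a culture of its own is not stated in the labels, and the p-values therefore rest on a spread that may be technical.

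All 4 members were lower in induced cells in every trial. On average over trials miR-221 fell to 0.651 of the uninduced level for the 3p and 0.648 for the 5p strand. miR-222-3p, the most abundant of the 4, stood at 0.886, and miR-222-5p, the rarest, at 0.702. By edgeR without the block only miR-221-5p passed among the members, and with the trial as a block miR-221-3p, miR-221-5p and miR-222-5p passed, all lower. That is 1 of 4 members against 2.67% of all tested microRNAs called lower without the block, and 3 of 4 against 11.0% with it. The strands of a hairpin come from 1 precursor and the hairpins lie side by side, so the members are not independent draws. These shares are therefore not read as an enrichment. In mean level over the 6 libraries miR-222-3p ranked 33, miR-221-3p 37, miR-221-5p 82 and miR-222-5p 187 of 525.

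miR-221-3p, the guide strand of miR-221, stood at 3865, 5135 and 3248 CPM in trials 1, 2 and 3 before induction. After it, the same trials gave 2460, 2907 and 2483 CPM. The groups did not overlap, and the uninduced library of trial 2 was the highest of the 6. The group means were 4083 CPM ± 962 and 2617 CPM ± 252 (SD, n = 3 each). The log2 change was -0.64 (SE 0.17) with an edgeR adjusted p of 0.0512, just outside the threshold, and -0.62 with an adjusted p of 0.000581 with the trial as a block (0.0587 without trial 3). Without the block it passed when uninduced replicate 3, its lowest uninduced library, was left out (edgeR adjusted p = 0.00610).

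miR-221-5p, the passenger strand of the same hairpin, had 860, 713 and 811 CPM uninduced in trials 1, 2 and 3. After induction it had 464, 468 and 624 CPM. These groups did not overlap either, and trial 3 showed the smallest difference. The means were 795 CPM ± 74.9 and 518 CPM ± 91.2 (SD, n = 3 each), and the log2 change was -0.62 (SE 0.15). The edgeR adjusted p was 0.0499 without and 0.00112 with the block. The unblocked call was lost in 5 of the 6 fits that left out 1 library, those without uninduced replicate 1 (adjusted p = 0.195), 2 (0.0879) or 3 (0.0709) or without induced replicate 1 (0.216) or 2 (0.163), and the blocked call without trial 3 (edgeR adjusted p = 0.0825).

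miR-222-3p, the guide strand of miR-222, had 4434, 4530 and 5068 CPM uninduced. In the induced libraries it had 3970, 3808 and 4689 CPM. Here the groups overlapped, since the induced library of trial 3 lay above the uninduced libraries of trials 1 and 2. The means were 4677 CPM ± 342 and 4155 CPM ± 469 (SD, n = 3 each). The log2 change of -0.17 (SE 0.12) did not pass (edgeR adjusted p = 0.450, and 0.118 with the block).

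miR-222-5p, its rare passenger strand, had 91.0, 57.2 and 89.3 CPM uninduced and 63.6, 35.8 and 70.8 CPM induced. Trial 2 was the lowest in both groups, and the groups overlapped because the uninduced library of trial 2 lay below the induced libraries of trials 1 and 3. The log2 change was -0.48 (SE 0.26, edgeR adjusted p = 0.341) without the block and -0.50 with it (edgeR adjusted p = 0.00344). The unblocked value was -0.25 when induced replicate 2 was left out. Without trial 3 the blocked edgeR adjusted p was 0.0831. This strand rested on 319 to 975 reads per library, against 25931 to 63853 for the 3p strands of the pair.

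**Figure D2:**
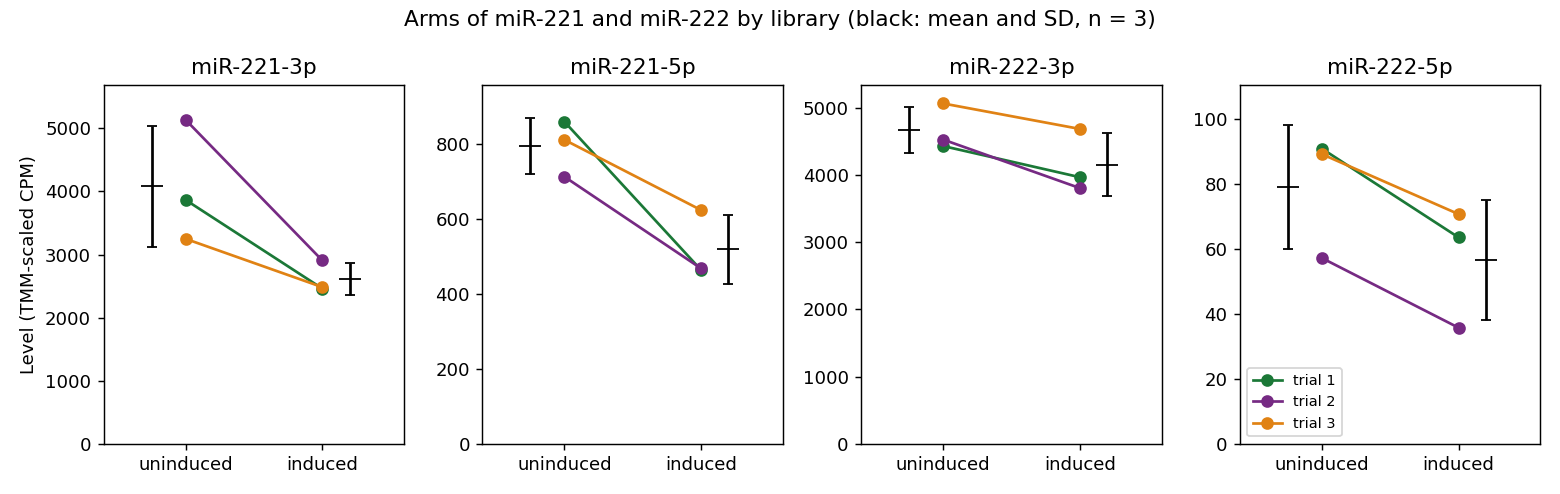
Level of each strand (y axis, TMM-scaled CPM, from 0) in the uninduced and induced libraries, with a coloured line joining the libraries of a trial and black marks for the group mean and SD. Every line slopes down, and the groups are separate for miR-221-3p and miR-221-5p but overlap for miR-222-3p and miR-222-5p.

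Groups that do not overlap, with induced cells lower, were found for 2 of the 4 members, both strands of miR-221, and for 11.6% of the 525 tested microRNAs. The change within each trial shows the pairing directly. For miR-221-3p the log2 ratio of induced to uninduced CPM was -0.65, -0.82 and -0.39 in trials 1, 2 and 3, a mean of -0.62 ± 0.22 (SD, n = 3 trials). miR-221-5p had -0.89, -0.61 and -0.38, a mean of -0.63 ± 0.26. The strands of miR-221 thus had similar mean changes, but trial 1 gave the larger change for the 5p strand and trial 2 for the 3p strand.

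For miR-222-3p the changes were -0.16, -0.25 and -0.11, a mean of -0.17 ± 0.07 (SD, n = 3 trials). For miR-222-5p they were -0.52, -0.68 and -0.33, a mean of -0.51 ± 0.17. Trial 3 had the smallest change of the 3 trials for every member. All 4 members were lower in all 3 trials, as were 35.9% of the 323 microRNAs with at least 10 CPM on average and reads in every library, so a common direction across trials is frequent in these data. By size, 15 of the 323, miR-221-3p included, had a mean change as low as that of miR-221-3p or lower, 14 as low as that of miR-221-5p, 19 as low as that of miR-222-5p and 94 as low as that of miR-222-3p. The median over the 323 was -0.02.

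**Figure D3:**
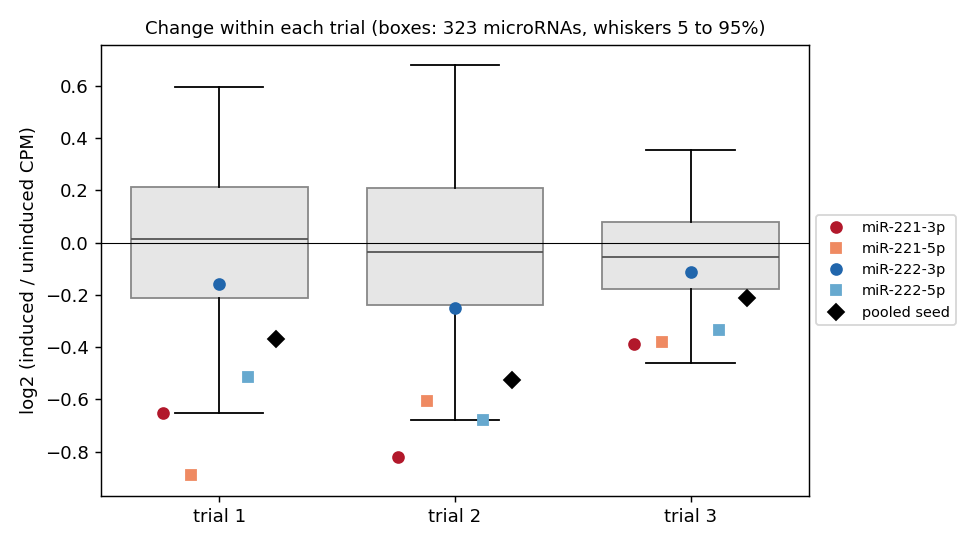
Log2 ratio of induced to uninduced CPM (y axis) in each trial (x axis) for the 4 members and for the pooled seed, over grey boxes of 323 microRNAs with whiskers from the 5th to the 95th percentile. All coloured and black points lie below 0, and miR-222-3p lies nearest to it in each trial.

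The hairpins differed in how strongly the 3p strand prevails. miR-221 gave 4.50, 7.21 and 4.0 reads of the 3p strand per read of the 5p strand in the uninduced libraries of trials 1, 2 and 3, and 5.30, 6.21 and 3.98 in the induced ones. The 5p strand was thus 18.2% (95% Wilson interval 17.8 to 18.6), 12.2% (11.9 to 12.5) and 20.0% (19.6 to 20.4) of the reads of the hairpin uninduced. It was 15.9% (15.5 to 16.2), 13.9% (13.5 to 14.3) and 20.1% (19.7 to 20.5) induced. The intervals cover counting error only, since no molecular identifiers are described. The trials differed more than the groups did, and the log2 arm ratio moved by 0.24, -0.21 and -0.01 within the trials. Its difference between groups was 0.01 (SE 0.25, limma adjusted p = 0.984).

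miR-222 was far more one-sided, with 48.7, 79.1 and 56.8 reads of the 3p strand per 5p read uninduced and 62.4, 106 and 66.2 induced. The 5p share was 2.01% (95% Wilson interval 1.88 to 2.15), 1.25% (1.15 to 1.36) and 1.73% (1.63 to 1.84) uninduced. In the induced libraries it was 1.58% (1.47 to 1.69), 0.930% (0.834 to 1.04) and 1.49% (1.4 to 1.58). The 5p share was lower after induction in every trial, although the groups overlapped. The log2 arm ratio moved toward the 3p strand by 0.36, 0.43 and 0.22 in the trials, by 0.34 on average (SE 0.26). Without the block this mean depended on single libraries. It was 0.09 when induced replicate 2 was left out, 0.18 in the absence of uninduced replicate 1, and 0.53 in that of uninduced replicate 2.

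Across 150 hairpins with both arms tested, limma on the log2 arm ratio called 0.667% in either direction without the block and 8.67% with it. The unblocked call was miR-342 alone. Its log2 ratio was 1.58, 0 and 0 in the uninduced libraries of trials 1, 2 and 3. A ratio of exactly 0 means equal counts in both arms, as when only the 0.5 added to each count remains. The reads behind this call are not given here, so it is not read as a change in strand choice. With at least 100 reads per arm and no block, 0 hairpins were called. miR-222 was not called without the block (limma adjusted p = 0.984) and was called with it (limma adjusted p = 0.0351). The blocked call was lost without trial 1 (adjusted p = 0.199), without trial 3 (0.103) and in limma without the trend and robust options (0.185). A rise in all 3 trials was seen for 21.3% of the hairpins, and the median size of the change over hairpins was 0.15.

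Trial 2 stood apart in the arm ratio. For miR-221 and for miR-222 it had the highest 3p to 5p ratio in both groups, by 0.60 and 0.66 on the log2 scale above the mean of the other trials. The median of this shift over the 150 hairpins was -0.00, so the trial had no common shift toward 3p strands, and 33 hairpins (22%) had trial 2 highest in both groups. The part of this shift in the changes above was not tested.

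**Figure D4:**
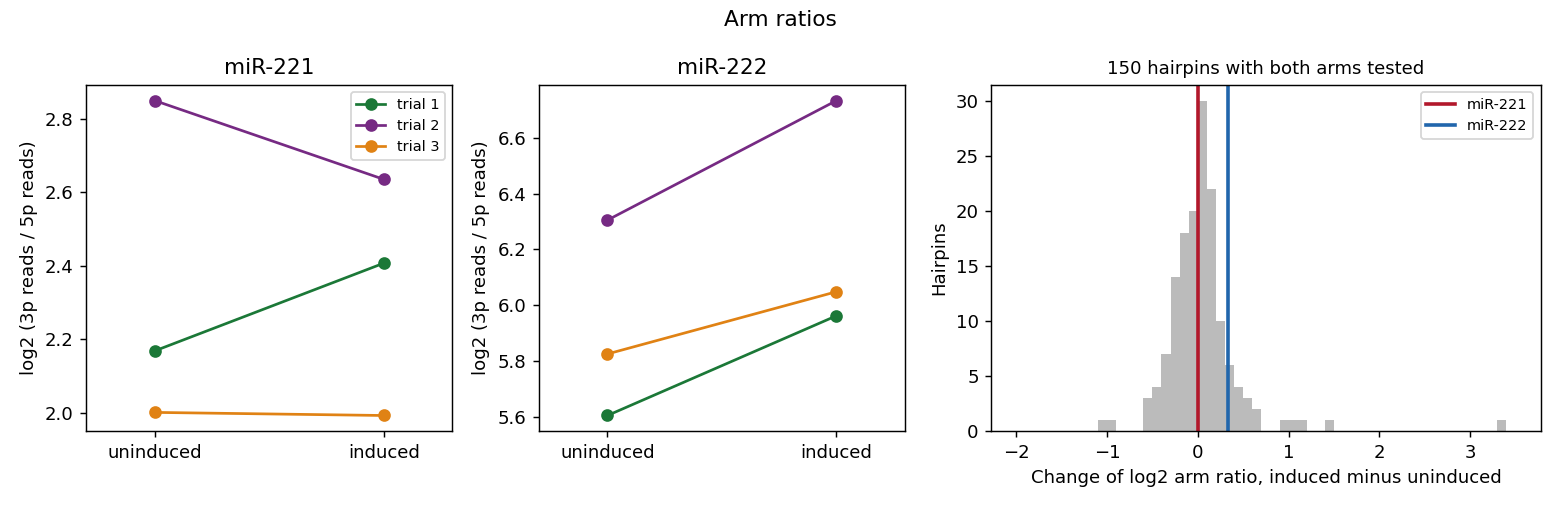
Log2 ratio of 3p to 5p reads of miR-221 and miR-222 in each library, joined by trial (left and middle; the y axes do not start at 0), and the change of this ratio for 150 hairpins (right, x axis in log2 units, y axis the number of hairpins). miR-222 rises in all 3 trials and miR-221 has no common direction; their mean changes of 0.34 and 0.01 rank 30 and 149 by size among the 150.

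The pair can also be compared strand by strand, which removes the scaling between libraries. miR-222-3p had 1.15, 0.882 and 1.56 reads per read of miR-221-3p in the uninduced libraries and 1.61, 1.31 and 1.89 in the induced ones. Only the uninduced library of trial 2 held more miR-221-3p than miR-222-3p. The log2 ratio of miR-221-3p to miR-222-3p was lower after induction by -0.49, -0.57 and -0.28 in trials 1, 2 and 3, a mean difference of -0.45. The groups overlapped. The exact two-sided permutation test gave p = 0.2, where 3 libraries against 3 cannot go below 0.1, and p = 0.25 by flipping the sign of the 3 trial differences, the smallest value that 3 trials allow. For the 5p strands the mean difference was -0.12 and the signs of the trials were mixed at -0.37, 0.07 and -0.04 (exact permutation p = 0.7). Adjusted over these 2 ratios the p-values were 0.4 and 0.7, so a stronger fall of miR-221 than of miR-222 was not shown by this test.

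Adding the reads of miR-221-3p and miR-222-3p gives the pooled dose of their seed. Before induction it was 8299, 9665 and 8316 CPM in trials 1, 2 and 3. The induced libraries had 6430, 6715 and 7172 CPM. Every induced library lay below every uninduced one, with the uninduced library of trial 2 the highest. Of the 525 single microRNAs tested, 11.6% were separate in this direction, and the share for seed families is not given here. The means were 8760 CPM ± 784 and 6772 CPM ± 374 (SD, n = 3 each), a ratio of 0.773. As a share of all reads the pooled seed went from 0.875% ± 0.115 to 0.680% ± 0.0207 (SD, n = 3 each). Of the difference of 1988 CPM, 1466 CPM (73.8%) came from miR-221-3p and 522 CPM from miR-222-3p. This split depended on single libraries. The part of miR-221-3p was 940 CPM (61.2%) without uninduced replicate 2, and that of miR-222-3p was 326 CPM without uninduced replicate 3 and 788 CPM without induced replicate 3. The share of miR-221-3p ranged from 61.2% to 85.2% with each library left out in turn.

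The share of the pooled dose that miR-222-3p supplied was 53.4% (95% Wilson interval 53.1 to 53.8), 46.9% (46.5 to 47.2) and 60.9% (60.6 to 61.3) uninduced. It was 61.7% (61.4 to 62.1), 56.7% (56.3 to 57.1) and 65.4% (65.1 to 65.7) induced. The share was higher after induction in each trial, while the groups overlapped because the uninduced library of trial 3 exceeded the induced library of trial 2.

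To test the pooled dose, the counts of all microRNAs with the same seed in RefSeq were summed and the summed table was tested as a whole. The seed of the pair ranked 20 of 1024 rows with reads by mean level. Its log2 change was -0.42 (SE 0.12, edgeR adjusted p = 0.0592) without the block and -0.42 with it (edgeR adjusted p = 0.00175). The scaling factors of the summed table differ from those behind the CPM values; with the latter the change was -0.37 (edgeR adjusted p = 0.0805, and 0.00649 with the block). The background was 3.29% of 456 tested rows called lower without the block and 16.7% with it. Within the trials the pooled change was -0.37, -0.53 and -0.21, a mean of -0.37 ± 0.16 (SD, n = 3 trials). Without the block it passed only when uninduced replicate 3 (edgeR adjusted p = 0.0400) or trial 3 (0.0491) was left out, and the blocked one passed with each trial left out in turn (adjusted p from 0.00615 to 0.0296).

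**Figure D5:**
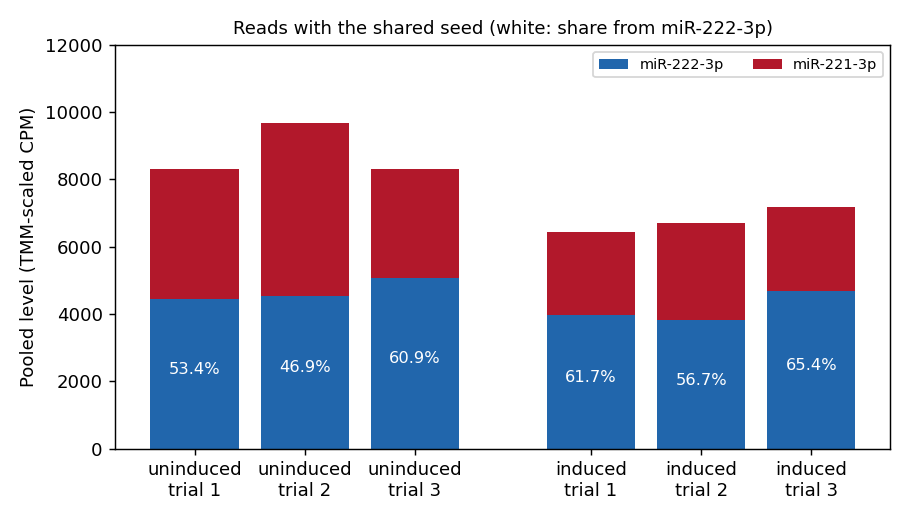
Pooled level of the shared seed in each library (y axis, TMM-scaled CPM), stacked from miR-222-3p (blue) and miR-221-3p (red), with the share of miR-222-3p in white. The 3 induced bars reach 6430 to 7172 CPM and the 3 uninduced bars 8299 to 9665 CPM, and most of the difference lies in the red part.

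Other microRNAs reported to target Kit were followed as a list of 8, of which 5 could be tested. miR-193b-3p, which represses Kit in myeloid cells, and miR-34c-5p, a p53-responsive microRNA, fell, and miR-218-5p, known from neurons, rose. Over all 525 tested microRNAs 2.67% were called lower and 3.43% higher by the same test. The mean of miR-193b-3p was 432 CPM ± 86.5 in induced against 940 CPM ± 317 in uninduced cells (SD over 3 libraries each). Its log2 change was -1.12 (SE 0.26) with an edgeR adjusted p of 0.0349. For miR-34c-5p, far rarer, the means were 4.71 CPM ± 0.603 against 11.2 CPM ± 4.32 (SD over 3 libraries each). The log2 change here was -1.24 (SE 0.29), with an edgeR adjusted p of 0.0349. Both lost the call in 5 of the 6 fits that left out 1 library, all but the fit without uninduced replicate 3. The highest edgeR adjusted p was 0.173 for miR-193b-3p, on leaving out uninduced replicate 1, and 0.151 for miR-34c-5p, on leaving out induced replicate 2. miR-218-5p had 0 uninduced and 58 induced reads and was at least 16.4-fold higher when the uninduced group was given a total of 3 counts, a direction that the filter on low counts fixed.

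miR-34a-5p (-0.16) and miR-193a-3p (0.04) did not pass, miR-34b-5p had 15 reads in all, and miR-137-3p and miR-494-3p had 0. Of 6 other microRNAs reported to target Cdkn1b, 5 were tested and 0 passed by edgeR without the block. The median log2 change of these 5 was -0.20, against 0.02 over all 525 tested. At an unadjusted p under 0.05 edgeR gave 1, and DESeq2 and limma-voom called 0. With the block miR-181a-5p passed (-0.30, edgeR adjusted p = 0.0255), where 11.0% of all tested were called lower.

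The microRNAs whose profile over the 6 libraries was most like that of miR-221-3p were sought among 319 others of at least 10 CPM, by the root mean square difference of log2 CPM after each profile was centred on its own mean. The closest were miR-23b-3p (0.12), miR-3535 (0.13), miR-98-5p (0.14), miR-669e-5p (0.15) and let-7a-5p (0.16). miR-222-3p lay further away, at 0.36, and 111 of the 319 were closer. For miR-222-3p the closest were let-7d-5p (0.05), miR-17-3p (0.05), miR-1191b-5p (0.05), and miR-466b-5p and miR-466o-5p (0.07 each), whose CPM were the same in every library, so these are 1 measurement. miR-23b-3p had 1516, 1984 and 1164 CPM uninduced and 801, 1014 and 782 CPM induced in trials 1, 2 and 3. It was picked for its likeness over these same libraries, so a shared order of libraries adds nothing. In the induced group its lowest library was that of trial 3, and that of miR-221-3p was trial 1.

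Markers of other cells in which miR-221 and miR-222 are abundant were read beside these results. The 2 strands of the endothelial miR-126a summed to 588 to 920 CPM uninduced and 605 to 951 CPM induced. The 6 stromal markers summed to 231 to 271 CPM uninduced and 146 to 216 CPM induced. These groups did not overlap, with induced cells lower, and 11.6% of the 525 tested microRNAs taken singly were separate in this direction. Without the block 1 of the 4 tested stromal markers fell, miR-199a-3p (log2 change -0.69, edgeR adjusted p = 0.0283), against 2.67% of all tested. With the block 3 of 4 fell, against 11.0%, adding miR-143-3p (-0.40, edgeR adjusted p = 0.00822) and miR-145a-5p (-0.90, edgeR adjusted p = 0.0419). miR-145a-5p rested on 164 reads in all. The remaining tested marker, miR-145a-3p, the other strand of that hairpin, did not fall. It had 1.02 CPM uninduced and 1.17 CPM induced on average (log2 change 0.15, edgeR adjusted p = 0.848, and 0.792 with the block). Of the same list, miR-214-3p had 0 reads and miR-199a-5p 25 reads in all libraries together, while miR-143-3p had 9807 and miR-199a-3p 3369. The part of stromal or endothelial RNA in the levels of miR-221 and miR-222 was not tested. In bulk RNA, fewer cells that make a microRNA and less of it per cell cannot be told apart.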

How the data were processed

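The authors deposited raw read counts per mature microRNA and library, per the file headers, and a table of normalized values, which was not used. Reads were aligned to miRBase, per the series' design text; Trim Galore 0.4.0, DESeq2 (listed as version 2.1.8.0) and mm10 appear in the submitters' processing notes. The sources used here do not name the counter or the miRBase release, nor how reads with several matches were handled. The 2061 entries were reduced to 1915 names by keeping the entry with most reads, which left out 17.5% of the total. Libraries of a group all differed beyond sampling noise (lowest chi-square 121 per degree of freedom), so none was counted as a repeat.

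For the 525 microRNAs that passed filterByExpr (99.987% of reads) the test was that of edgeR 4.0.16, run under R 4.3.3 (TMM, glmQLFit with robust estimation, glmQLFTest, two-sided, Benjamini-Hochberg, threshold 0.05), with group alone as the main design. SE values are the log2 change divided by the root of the F statistic. For pooled seeds, counts of names with the same bases 2 to 8 in RefSeq (GRCm38.p6; 1623 names matched, 292 did not and stayed single) were summed and tested likewise; pooled CPM values use the TMM factors of the microRNA table, the fit those of the summed table. Arm ratios, log2 of 3p over 5p reads with 0.5 added, were tested with limma 3.58.1 (trend, robust) over 150 hairpins. Profiles were compared as log2 CPM (prior count 2). DESeq2 1.42.0, limma-voom, other scalings, no filter and libraries left out were the alternatives. The steps were tested on simulated data.

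Trial numbers in the labels are shared by the groups. Deviations from group means correlated within trials by 0.33, 0.45 and 0.53 across microRNAs, all over 0.1, so trials were taken as pairs and blocked values are given where they change a call. Names reported were the members, the 5 closest profiles of each 3p strand, the tested members of 2 target lists and microRNAs that share the seed; miR-342 was named after its value was seen, as were miR-34b-5p, miR-137-3p and miR-494-3p among untested list members and the markers singled out. Members and lists were chosen with earlier results of these data known.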

Additional observations from a re-analysis of the deposited data

How the results depend on the processing

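All 4 members and the pooled seed kept their negative direction under every alternative run. The block raised the number of microRNAs past the threshold from 32 to 114 (66, 60 and 12 without trials 1, 2 and 3), limma-voom lowered it to 20, and leaving out libraries or a trial without the block gave 11 to 41. For seed families 29 became 119 with the block (63, 77 and 67 without trials 1, 2 and 3; 105 with the factors of the microRNA table) and 4 to 40 with libraries left out. For arm ratios 1 became 13 with the block, 20 with the block and a pseudocount of 5, 18 with the block and at least 100 reads per arm, 4, 18 and 6 with the block and without trials 1, 2 and 3, 2 with the pseudocount of 5 alone, 0 with at least 100 reads per arm, and 0 to 2 with libraries left out.

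The log2 change of miR-221-3p passed with the block (-0.62; -0.61 and -0.52 without trials 1 and 2), in DESeq2 (-0.67) and without a filter (-0.65), and ranged from -0.79 to -0.43 with libraries left out. That of miR-221-5p no longer passed with the block without trial 3 (-0.76), with library totals (-0.61), upper quartile factors (-0.61), summed entries (-0.62) or limma-voom (-0.62), and ranged from -0.81 to -0.48 with libraries left out. miR-222-5p passed with the block (-0.50; -0.50 and -0.43 without trials 1 and 2), and miR-222-3p under none; with libraries left out they ranged from -0.70 to -0.25 and from -0.30 to -0.11. The pooled seed passed with the block (-0.42; -0.42, -0.28 and -0.51 without trials 1, 2 and 3; -0.37 with the factors of the microRNA table), and ranged from -0.52 to -0.28 with libraries left out.

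The arm ratio of miR-222 passed with the block (0.34; 0.33 with a pseudocount of 5, 0.34 with at least 100 reads per arm, 0.29 without trial 2), and ranged from 0.09 to 0.53 with libraries left out without the block. That of miR-221, near 0, changed sign with the block without trial 1 (-0.11) and ranged from -0.16 to 0.26 with libraries left out. The ratio of miR-221-3p to miR-222-3p kept its sign and missed the threshold throughout, a test too small to pass it with 3 libraries a group. The cause of these differences was not tested. The factors of the microRNA table, the block combined with another choice or without a trial for arm ratios, all alternatives for within-trial changes and the libraries left out of the split of the pooled difference were chosen after seeing the data. Among the other named microRNAs, 3 with changes near 0 turned in sign: miR-193a-3p to -0.22 with the block without trial 1 and a range of -0.23 to 0.24 with libraries left out, miR-24-3p to 0.0064 with the block without trial 3 (range -0.19 to 0.022) and miR-152-3p to 0.075 with the same setting (range -0.21 to 0.093). The low counts of miR-222-5p limit its arm ratio.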
